A study of Drosophila melanogaster with 3 samples.

Results

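In embryos that carried a GFP-tagged PHDP protein, 179 peaks of anti-GFP chromatin immunoprecipitation lay at starts of non-coding genes and of no protein-coding gene. A peak was counted here when its summit lay within 500 bp of an annotated start of a gene that is neither protein-coding nor a transposable element, and more than 500 bp from every protein-coding start. The 179 came from the peaks that passed the irreproducible discovery rate (IDR) filter, a test of whether replicates rank peaks alike. Of the other peaks that passed, 2967 lay within 500 bp of a protein-coding start and 3946 away from any start, so the 179 made up 2.52% of all (95% exact binomial interval 2.17 to 2.92%, for the error of counting peaks). Because this is under the 200 set for describing the class from the IDR peaks alone, the list of 30000 peaks called on the pooled replicates was used in addition. It held 916 such peaks, of which 737 were not in the IDR list. Results below are for the 179 IDR peaks unless the pooled list is named.

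PHDP is a paired-like homeodomain transcription factor of Drosophila melanogaster. The single group was whole embryos 10 to 24 hours old of a transgenic line in which PHDP has green fluorescent protein (GFP) at its C terminus, with 3 biological replicates. The sources used here do not give the promoter of the transgene or the number of founder lines. No embryos without the tag were analysed here, so peaks that the antibody gives without PHDP cannot be told apart from PHDP binding. Sequencing depth is unknown from the files.

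Non-coding genes make RNAs that work without being translated. Long non-coding RNAs (lncRNAs) and antisense RNAs are made by RNA polymerase II, as are the primary transcripts from which microRNAs (miRNAs) are cut. Transfer RNAs (tRNAs), the U6 small nuclear RNA (snRNA) and 7SK are made by RNA polymerase III. Many small nucleolar RNAs (snoRNAs), which guide chemical changes on ribosomal RNA, are cut from introns of host transcripts. For a miRNA or a snoRNA the annotated start is therefore the 5′ end of the processed RNA, which need not be where transcription begins.

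Sequences around summits of 6 classes are shown because the words searched for below can be seen in them, and because they differ in base composition. Each runs 60 bp either side of the summit on the plus strand of dm6, read from the RefSeq release 6 genome. Capitals mark the words TAATTA (bound by many homeodomain proteins), AGATAA (the GATA factor word), TATAAA (the TATA box), TGTTTAC (forkhead), CAGCTG (E-box), CAGGTA (Zelda core), GGTTCGA (core of the B box inside tRNA genes), TATCGATA (the DNA replication-related element, DRE) and GGTCACAC (core promoter Motif 1), on either strand. Neighbouring words can overlap.
lncRNA:CR46036 (chr3R:17700529-17700649): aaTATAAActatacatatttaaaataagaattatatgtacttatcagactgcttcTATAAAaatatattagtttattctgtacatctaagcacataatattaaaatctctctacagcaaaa
asRNA:CR44429 (chrX:15298415-15298535): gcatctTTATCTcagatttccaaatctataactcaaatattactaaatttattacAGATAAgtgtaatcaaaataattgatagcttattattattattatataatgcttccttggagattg
mir-9377 (chrX:12665583-12665703): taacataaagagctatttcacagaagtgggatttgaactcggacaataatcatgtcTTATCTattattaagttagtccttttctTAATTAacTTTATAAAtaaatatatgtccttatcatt
tRNA:Gln-TTG-2-1 (chrX:3427726-3427846): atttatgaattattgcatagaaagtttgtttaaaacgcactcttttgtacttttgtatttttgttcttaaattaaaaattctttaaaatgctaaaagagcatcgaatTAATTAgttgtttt
snRNA:7SKa (chr3R:7474736-7474856): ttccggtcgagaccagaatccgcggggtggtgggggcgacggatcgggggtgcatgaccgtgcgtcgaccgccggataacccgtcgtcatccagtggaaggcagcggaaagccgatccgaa
CR31032 (chr3R:29859908-29860028): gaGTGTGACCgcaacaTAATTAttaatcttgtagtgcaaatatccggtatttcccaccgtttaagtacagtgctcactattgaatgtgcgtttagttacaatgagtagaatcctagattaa
The windows at lncRNA:CR46036 and asRNA:CR44429 hold TATAAA and AGATAA words, each 2 times. The windows at mir-9377 and tRNA:Gln-TTG-2-1 hold TAATTA, and the mir-9377 window also holds AGATAA and TATAAA. The window at snRNA:7SKa holds none of the words. The window at the pseudogene CR31032 holds the only GGTCACAC of all 179 peaks.

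By class, 118 of the 179 peaks had a lncRNA start as their nearest non-coding start, 21 an antisense RNA, 14 a miRNA, 13 a tRNA, 6 a snoRNA, 3 an snRNA, 3 another non-coding RNA and 1 a pseudogene. None lay at a ribosomal RNA gene, and how well reads can be placed at repeated gene copies was not examined. The peaks named 172 different nearest genes, 7 of them with 2 peaks and 0 with 3 or more. Counting every gene with a start in reach, 191 of 3738 non-coding genes had such a peak, which is 5.11%. Counted with any IDR summit within 500 bp, whether or not a protein-coding start was also close, it was 342 of 3738 (9.15%), against 25.1% of protein-coding genes counted in the same way. The share with a peak at non-coding starts only was 6.12% of 1944 lncRNA genes, 7.93% of 290 tRNA genes, 5% of 260 miRNA genes, 3.78% of 503 antisense RNA genes and 3.28% of 274 snoRNA genes. It was 12.5% of 32 snRNA genes, which is 4 genes, and 0.373% of 268 pseudogenes, which is 1 gene. The way of counting sets the order: with any IDR summit the share was 13.1% of antisense RNA genes, 9.10% of lncRNA genes, 11.7% of tRNA genes, 8.39% of snoRNA genes and 7.31% of miRNA genes. Counted so, it was 13.2% of 68 other non-coding RNA genes, 12.5% of snRNA genes, 3.73% of pseudogenes and 0% of ribosomal RNA genes. Among each replicate's 5000 strongest peaks the numbers were 98.7 ± 4.62 lncRNA genes, 14.7 ± 4.04 tRNA genes and 13.3 ± 2.89 antisense RNA genes (SD, n = 3).

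**Figure D1:**
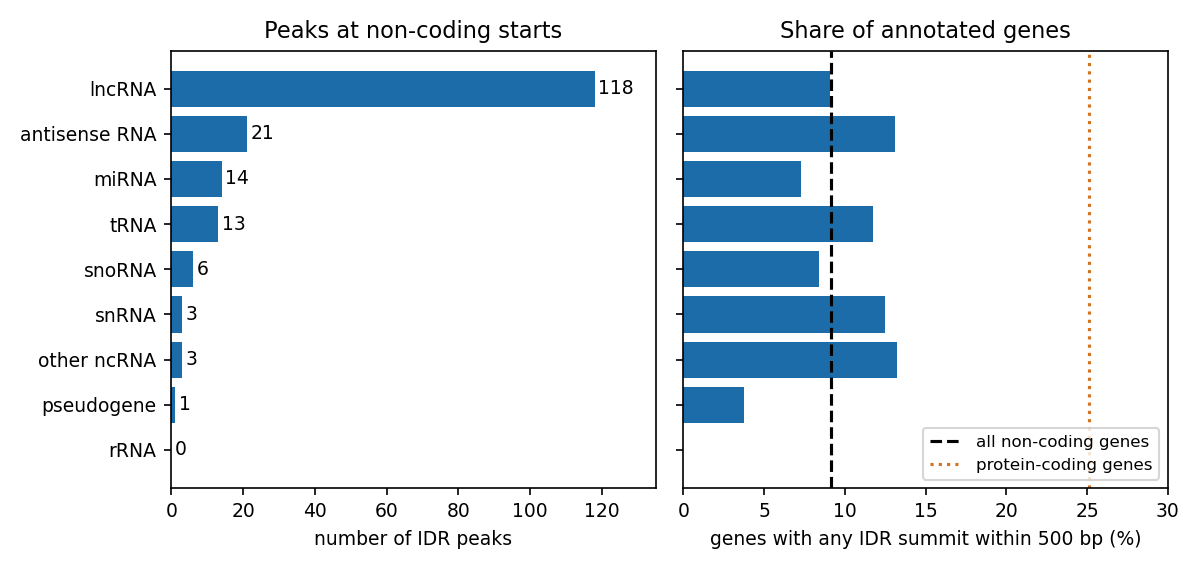
Left, number of IDR peaks at starts of non-coding genes only, by class of the nearest gene. Right, percent of annotated genes of each class with any IDR summit within 500 bp, with a dashed line for all non-coding genes (9.15%) and a dotted line for protein-coding genes (25.1%), all counted alike. lncRNA genes hold 118 of the 179 peaks, and the 9 class shares lie between 0 and 13.2%.

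Sequence in reach of non-coding starts only made up 2.10% of the arms, so the peaks were set beside the length in which they could fall. There were 63.7 IDR peaks per Mb there, against 194 per Mb within 500 bp of protein-coding starts and 34.1 per Mb away from any start. Among each replicate's 5000 strongest peaks the density was 49.3 ± 1.44 per Mb at non-coding starts, against 141 ± 2.44 at protein-coding starts and 23.3 ± 0.358 away from starts (SD, n = 3). The size of each class follows from the rule, so these densities carry no test. By class the IDR density was 70.7 per Mb at lncRNA starts, 69.0 at miRNA starts, 67.6 at tRNA starts and 62.4 at antisense RNA starts, but 43.1 at snoRNA starts and 4.59 at pseudogene starts. It was 115 at snRNA starts and 73.1 at other non-coding RNA starts, each with 3 peaks, and 0 at ribosomal RNA starts.

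A non-coding gene with a protein-coding start close by had an IDR summit more often. Of 616 non-coding genes with a protein-coding start within 500 bp of their own, 21.9% had an IDR summit at the start, against 6.63% of 3122 without one. For antisense RNA genes the shares were 25.3% and 6.23%, and for tRNA genes 31.2% and 9.30%. The snRNA genes had 0 of 3 and 4 of 29. Of all protein-coding genes, 25.1% had an IDR summit within 500 bp of a start. Where a protein-coding start is close, a summit can be in reach of both starts. To which of the starts such a summit belongs was not tested. In all, 334 IDR summits lay within 500 bp of a non-coding start, and 155 of them (46.4%) were set aside because a protein-coding start was also within 500 bp. Among the 179 that remained, the nearest protein-coding start was up to 1000 bp away for 33, beyond that but up to 5000 bp for 90 and farther for 56, with a median of 2837 bp.

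The peaks just inside and just outside the limits differed by few bases. The summit farthest from its non-coding start lay 497 bp from lncRNA:CR43263 (signal 391), and the nearest ones left out were at asRNA:CR44176 (signal 222) and 504 bp from lncRNA:CR44619 (signal 2611). The summit nearest to a protein-coding start lay 512 bp from FucT6 at mir-9370 (signal 202), and one 491 bp from Septin2 at asRNA:CR46044 (signal 539) was left out.

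The strongest of all was a peak 157 bp upstream of lncRNA:CR44339 at chr2R:12984990-12985425, 4216 bp from the start of Psc, a Polycomb group gene. The authors' signal, a measure of peak strength on a scale that is not stated and differs between lists, was 3742 in the IDR list, where it ranked 25. It was 1295, 1447 and 1008 in replicates 1, 2 and 3, where it ranked 26, 28 and 28. All 3 replicates thus placed it among their 30 strongest peaks of 30000.

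The next strongest, 152 bp upstream of lncRNA:CR46036 at chr3R:17700347-17700808, lay in an intron of osa on the opposite strand. osa codes for a subunit of the Brahma chromatin remodelling complex. Its signal was 1085, 1144 and 849 in replicates 1, 2 and 3, and it ranked 45 in the IDR list. The fourth and sixth strongest were neighbours 1778 bp apart on arm 2L. One lay 10 bp into lncRNA:CR31840 (827, 873 and 643 in replicates 1, 2 and 3), and the other 278 bp upstream of lncRNA:CR45352 (684, 618 and 477). In each pair of values the lncRNA:CR31840 peak was the higher.

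The strongest antisense peak lay 258 bp upstream of asRNA:CR44429 at chrX:15298274-15298696, in an intron of gce, which codes for a juvenile hormone receptor, and 534 bp from a gce start. Its signal was 853, 753 and 561 in replicates 1, 2 and 3. A peak 442 bp upstream of lncRNA:CR42657 lay 681 bp from a start of nej, the gene of the acetyltransferase CBP, with 578, 657 and 518. Peaks at lncRNA:CR44867 (532, 710 and 463) and lncRNA:CR44868 (495, 489 and 398) were 925 bp apart, both in an intron of beat-Ib, of a family of cell adhesion genes first known from motor axon guidance, on the opposite strand. lncRNA:CR45251 had a peak on each side of its start, with IDR signals of 1379 and 912, and the nearest protein-coding start was 14829 bp from the weaker.

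**Figure D2:**
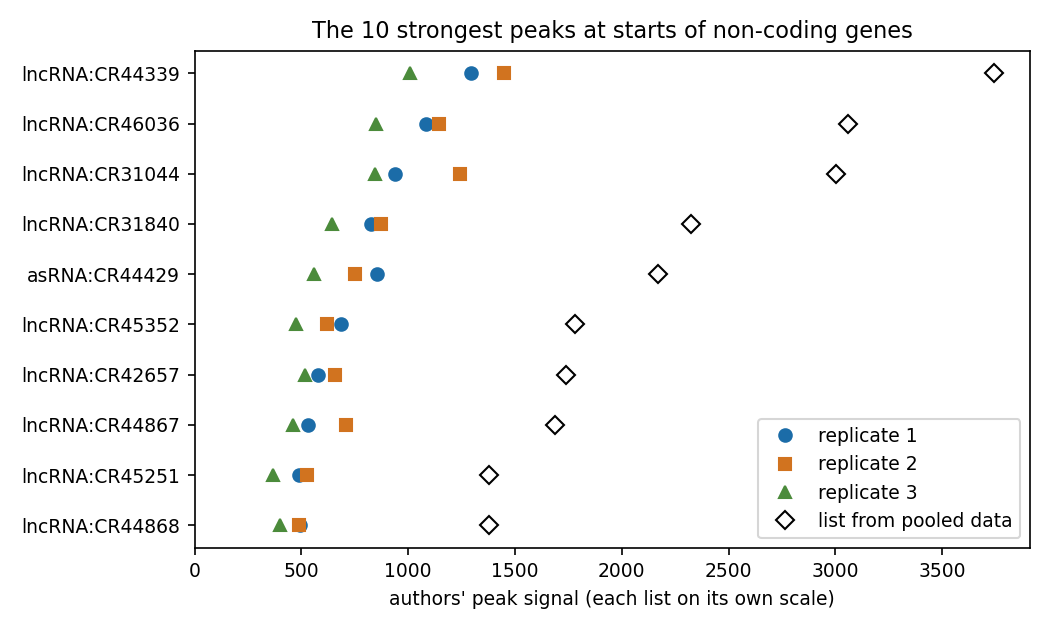
The authors' peak signal of the 10 strongest peaks at starts of non-coding genes, strongest at the top, in each replicate (filled symbols) and in the list from pooled data (open diamonds), whose scale differs. Replicate 3 is the lowest in all 10, and the strongest, at lncRNA:CR44339, has 1295, 1447 and 1008 in replicates 1, 2 and 3.

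The third strongest peak stood at a primary miRNA gene. It lay 119 bp upstream of lncRNA:CR31044 at chr3R:29214186-29214633, the transcript that holds mir-279 and mir-996, and had 938, 1243 and 843 in replicates 1, 2 and 3 (IDR rank 48). In flies miR-279 is known to limit the formation of CO2-sensing neurons. The miRNAs themselves had no IDR peak within 500 bp of their annotated starts, and their best pooled peaks ranked 13376 and 23907.

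Other lncRNAs that hold miRNAs on their own strand also had peaks, a grouping chosen after these values were seen. lncRNA:CR43626, which holds mir-282, had 2 peaks, upstream of different annotated starts. The stronger had 543, 320 and 328 in replicates 1, 2 and 3, and the weaker 101, 72.9 and 92.8. lncRNA:CR43651 holds mir-14, a miRNA known to curb cell death, and had a peak 54 bp upstream of its start with 86.2, 136 and 143. lncRNA:CR43650 holds mir-8, known to promote growth, and had a peak with 187, 86.2 and 66.9. Replicate 1 was the highest at the mir-8 host and the lowest at the mir-14 host.

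The remaining hosts were lncRNA:CR43857 with mir-275 (103, 62.8 and 65.6 in replicates 1, 2 and 3), lncRNA:CR43314 with mir-bft (82.6, 50.8 and 82.3), asRNA:CR46194 with mir-281-1 and mir-281-2 (208, 210 and 170) and lncRNA:Hsromega. In all, 8 of 38 lncRNA and antisense RNA genes with a miRNA inside had a peak at a start, 21.1%, against 5.40% of the other 2409. Among each replicate's 5000 strongest peaks the shares were 18.4, 13.2 and 15.8% of host genes, against 4.32, 4.40 and 4.48% of the others. The replicates cover the same genes and share many sites, so these shares are not independent of each other. No test is given, since the grouping followed the values.

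Annotated miRNA starts themselves drew 14 peaks at 13 hairpins. For 8 of the peaks the nearest start was that of a mature miRNA record rather than of the hairpin. Most of these did not depend on the mature records. With those left out, the share of IDR peaks at non-coding starts was 2.51%, against 2.52% with them. Mature sequences of 4 well-studied hairpins are shown with the seed, bases 2 to 8, by which a miRNA pairs with its targets, in capitals. The strands were read from the RefSeq release 6 genome at the Ensembl coordinates and written as RNA.
mir-ban, mature record at the 3′ side of the hairpin (chr3L:642259-642281, plus strand): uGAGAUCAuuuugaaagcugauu
mir-275, mature record at the 3′ side of the hairpin (chr2L:7425853-7425875, plus strand): uCAGGUACcugaaguagcgcgcg
mir-34, mature record at the 5′ side of the hairpin (chr3R:10100952-10100975, plus strand): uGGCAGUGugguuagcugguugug
mir-92b, mature record at the 3′ side of the hairpin (chr3R:25651457-25651478, plus strand): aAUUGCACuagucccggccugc
The 23 mature records read for 12 of the hairpins hold 23 different seeds.

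The strongest miRNA peaks stood in introns of protein-coding genes, 396 bp downstream of the nearest mature mir-9377 start in Tis11 (268, 291 and 233 in replicates 1, 2 and 3) and 148 bp upstream of mir-9378 in CG17124 (239, 194 and 212). In both the miRNA and its host share a strand. The bantam miRNA (mir-ban), which promotes growth and blocks cell death, had a peak 428 bp downstream of a mature record, at chr3L:642523-642792. Its signal was 100, 147 and 155 in replicates 1, 2 and 3. At mir-275 the peak lay 436 bp upstream of the hairpin (111, 139 and 93.2), 1839 bp from the peak at its host lncRNA. mir-14 had 2 peaks, with IDR signals of 202 and 177, in addition to the one at its host. At mir-34, known in flies for protection of the ageing brain, the peak lay 226 bp upstream (65.6, 67.2 and 43.0). At mir-92b it lay 140 bp downstream of a mature record in an exon of jigr1 (64.7, 87.5 and 71.2). From bantam on, these peaks held IDR ranks between 2417 and 6833.

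Transfer RNA starts had 13 peaks, which reached 23 of 290 tRNA genes because tRNA genes are clustered. The strongest lay 183 bp upstream of tRNA:Arg-CCT-1-2 (191, 266 and 206 in replicates 1, 2 and 3) and 263 bp upstream of tRNA:Gln-TTG-2-1 (149, 187 and 139). The third, 223 bp upstream of tRNA:Gly-TCC-2-2, had 106, 125 and 94.0. Replicate 2 was the highest in all 3 of them. Among the 13 tRNA peaks the median IDR rank was 4988, against 3272 over all 179 peaks. This was not particular to tRNA peaks, since the median was 5085 for antisense RNA and 4857.5 for miRNA peaks. It was 4026 for snRNA, 3969.5 for snoRNA and 2818 for the 118 lncRNA peaks. Peaks with a tRNA start nearest were a larger share of the pooled list. They were 7.26% of the 179 IDR peaks and 15.7% of the 916 pooled ones, which include the 179.

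Of the polymerase III snRNA genes, snRNA:7SKa, one of the annotated copies of the RNA that holds back the elongation factor P-TEFb, had a peak 200 bp inside the gene at chr3R:7474663-7474896. Its signal was 142, 136 and 130 in replicates 1, 2 and 3. snRNA:7SKb had no pooled peak. A peak 57 bp upstream of snRNA:U6:96Ac, a part of the catalytic core of the spliceosome, also reached snRNA:U6:96Ab and had 41.2, 137 and 92.1, with replicate 1 the lowest. At snRNA:U5:63BC, a core spliceosomal RNA made by polymerase II, the peak lay 46 bp downstream of the start (75.6, 75.7 and 91.8). Of 29 snRNA copies searched for U1 to U12, U7 and 7SK, 4 had an IDR peak of this kind, 6 had one only in the pooled list and 19 had none. Over all 3738 non-coding genes, 5.11% had an IDR peak of this kind. How well reads can be placed at such copies was not examined.

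Among snoRNAs the strongest peaks were at snoRNA:Or-ACA6 (214, 291 and 183 in replicates 1, 2 and 3), snoRNA:185 (41.9, 173 and 72.1) and snoRNA:Or-ACA9 (99.4, 99.8 and 80.2). The snoRNA:185 values ranged widest, with replicate 2 the highest. Uhg4, a host transcript from whose introns 7 annotated snoRNAs are cut, had a peak 90 bp upstream of its start with 328, 374 and 285. Uhg2, Uhg5 and Uhg8 had an IDR summit that also lay at a protein-coding start. Uhg1 and Uhg3 had peaks only in the pooled list, and Uhg7 had none. The small RNA sncRNA:CR43701 and RNaseMRP:RNA, the RNA of an enzyme that processes ribosomal RNA, had peaks in replicates 1 and 2 (59.9 and 101, and 40.5 and 94.0) with no match in replicate 3. The only pseudogene peak, at CR31032, had no match in replicate 1 and 107 and 97.3 in replicates 2 and 3.

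Well-known long non-coding RNAs divided between the lists. lncRNA:Hsromega, the heat shock transcript that forms nuclear speckles, had a peak 195 bp downstream of a start with 330, 256 and 197 in replicates 1, 2 and 3. lncRNA:yar, which lies between yellow and achaete and affects sleep, had a weak but even peak (69.6, 76.7 and 69.6). lncRNA:flam, the flamenco piRNA cluster that silences transposons in ovarian follicle cells, was added after its values were seen and had a peak 173 bp upstream with 187, 210 and 188. The dosage compensation RNAs lncRNA:roX1 and lncRNA:roX2 had peaks only in the pooled list, at ranks 9446 and 10133. lncRNA:bxd and lncRNA:iab8 of the bithorax complex and lncRNA:let7C had no pooled peak at a start. Over 67 known non-coding genes found in the annotation, 11 had an IDR peak of this kind, 3 had an IDR summit that also lay at a protein-coding start, 19 had a pooled peak only and 34 had none. Over all 3738 non-coding genes, 191 (5.11%) had an IDR peak of this kind and 342 (9.15%) had any IDR summit within 500 bp. The share with a pooled peak was not computed over all of them. The list of known genes was drawn from well-studied genes, and its counts describe these genes only.

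Summits lay mostly upstream of non-coding starts but were spread widely. Of the 179, 114 were upstream, 64 downstream and 1 at the start itself, so 63.7% were upstream, against 78.3% of the 2967 IDR peaks at protein-coding starts. Within 200 bp of the start lay 45.3% of the summits at non-coding starts, against 71.4% at protein-coding ones. The median distances were 214 bp and 126 bp. Among each replicate's 5000 strongest peaks, 43.7% ± 2.16 and 69.3% ± 2.43 lay within 200 bp, a difference of -25.6 ± 3.07 percentage points (SD, n = 3). The distance to a start is what the peaks were chosen by, so this is a description with no test. Downstream, 37 of the 179 lay more than 250 bp from the start, as many as lay that far upstream. By class, 16 of 21 antisense RNA peaks, 72 of 118 lncRNA peaks, 9 of 13 tRNA peaks and 1 of 3 snRNA peaks were upstream.

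**Figure D3:**
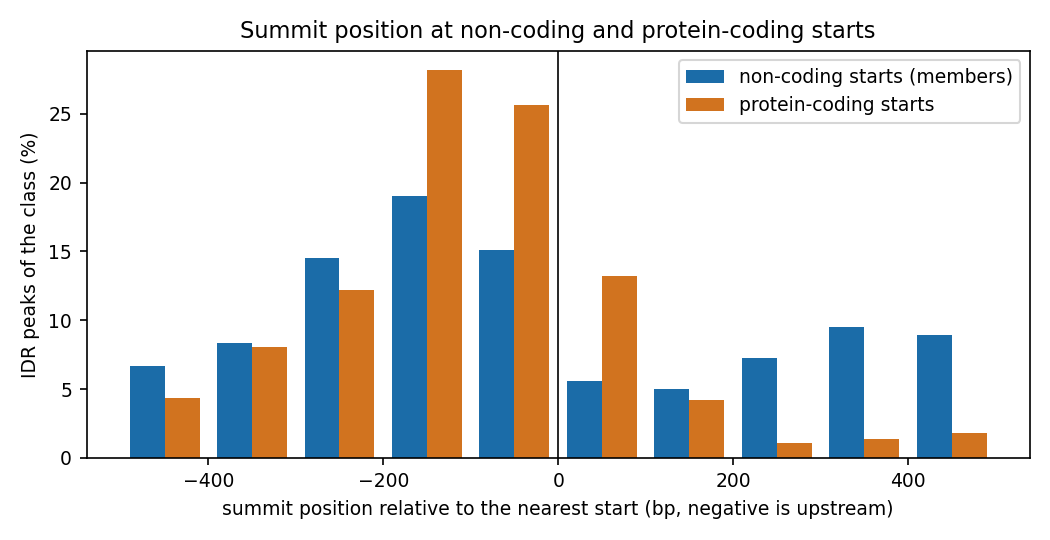
Position of IDR summits relative to the nearest start, in bins of 100 bp with negative values upstream, as percent of the 179 peaks at non-coding starts (blue) and of the 2967 at protein-coding starts (orange). Protein-coding starts hold 28.2% of their summits 100 to 200 bp upstream, against 19.0% at non-coding starts, and non-coding starts hold more beyond 200 bp downstream.

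Peaks at non-coding starts stood in protein-coding genes less often than IDR peaks in general. Of the 179, 71 (39.7%) lay inside a protein-coding gene body, against 61.7% of all IDR peaks. The position relative to coding starts is part of how the peaks were chosen, so no test is given. In 47 of the 71 the protein-coding gene lay on the opposite strand from the non-coding gene, in 23 on the same strand, and in 1 on both. For antisense RNAs it was opposite in 12 of 13, and for lncRNAs in 27 of 36. For miRNAs it was the same strand in 8 of 9. Strand shares over all annotated non-coding genes inside protein-coding genes were not computed. These counts can therefore follow from the annotation and describe the peaks only. By annotation, 67 summits were intergenic, 50 in an exon of a non-coding gene, 46 in an intron of a protein-coding gene, 8 in an exon of a protein-coding gene and 8 in a non-coding intron. By arm, 47 lay on 2L, 41 on 2R, 31 on 3L, 37 on 3R, 23 on X and 0 on 4. Arms 2L and 2R held 26.3% and 22.9% of them, against 19.1% and 17.9% of all IDR peaks.

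In strength these peaks stood close to others. With the limit of 500 bp they were matched between replicates somewhat more often than those at protein-coding starts. In the strongest 25% of the IDR list were 51 of the 179, or 28.5%, against 29.6% of peaks at protein-coding starts and 25% of all by definition. The matched signal, compared as a median on the log2 scale within each replicate, differed from that at protein-coding starts by -0.14, 0.04 and -0.04 in replicates 1, 2 and 3, with a mean of -0.05 ± 0.09 (SD, n = 3, exact sign-flip p = 0.75). Against peaks away from any start it was higher in 3 of 3 replicates, by 0.03, 0.16 and 0.10, with a mean of 0.09 ± 0.07 (exact sign-flip p = 0.25, the smallest that 3 replicates allow). With a limit of 200 bp in place of 500 the direction turned, to -0.0693 ± 0.0253 (exact sign-flip p = 0.25), lower in 3 of 3. All 3 replicate lists had a summit within 100 bp for 169 of the 179, 94.4% (95% exact binomial interval 89.97 to 97.3%), beside 90.5% of all IDR peaks, 87.6% of those at protein-coding starts and 92.6% of those away from starts. The other 10 were matched in 2 replicates. With a limit of 200 bp from the start, 87.4% of the peaks at non-coding starts were matched in all replicate lists, and with 1000 bp 93.9%. The share at protein-coding starts was not computed with these limits. The lists are not independent of the IDR list, which was derived from them.

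The share of peaks at non-coding starts changed little along the ranks. Among the 5000 strongest peaks of a replicate it was 2.68, 2.82 and 2.82% in replicates 1, 2 and 3, and below the rank at which the IDR list ends it was 3.26, 3.11 and 3.03%. The share was lower among the strong peaks in each replicate, with a mean difference of -0.36 ± 0.19 percentage points (SD, n = 3, exact sign-flip p = 0.25), and of -0.18 with gene records as starts (exact sign-flip p = 0.5). Within bins of 2500 ranks the mean ran between 2.60% and 3.52%, and the strongest bin had 2.95% ± 0.0231.

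**Figure D4:**
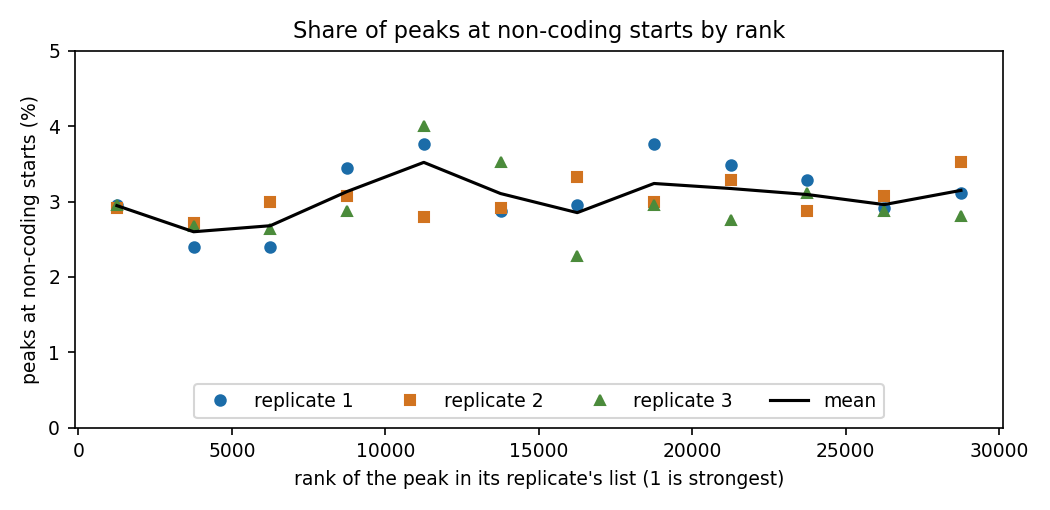
Share of peaks at starts of non-coding genes only, in bins of 2500 ranks of each replicate's list, strongest at the left (symbols, replicates, and line, their mean). The means lie between 2.60% and 3.52%, with no steep fall or rise along the list.

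Several words differed between summits at non-coding and at protein-coding starts in the same direction in every replicate. Windows of 100 bp either side of the summit were searched for each word on both strands. All 3 whole replicate lists had a summit within 100 bp for 94.4% of the 179 peaks, and within 50 bp for 71.5%, so the replicates share many sites. How far the windows of each replicate's 5000 strongest peaks overlap was not computed. The SD and the shared direction over replicates leave out the error of counting windows, and the replicates are not independent repeats. The DRE word TATCGATA, bound by DREF at promoters of housekeeping genes, was in 0 of the 179 windows, which allows a share of up to 1.68% (3 counts), against 6.88% at protein-coding starts and 3.12% of all IDR peaks. Peaks away from starts had 0.431%. Among each replicate's 5000 strongest peaks it was in 0, 0 and 0.709% of windows at non-coding starts, against 5.75, 6.48 and 5.97% at protein-coding starts. The difference was -5.83 ± 0.613 percentage points (SD, n = 3), lower in 3 of 3 replicates (exact sign-flip p = 0.25). With windows of 50 bp either side it was -2.35.

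Motif 1, GGTCACAC, another core promoter word of housekeeping genes, was in 1 of the 179 windows (0.559%), against 4.72% at protein-coding starts, 0.355% away from starts and 2.19% of all IDR peaks. In the replicates it was in 0, 0.709 and 0.709% of windows, against 3.11, 4.18 and 4.29% at protein-coding starts, a difference of -3.39 ± 0.245 percentage points (SD, n = 3, exact sign-flip p = 0.25), and of -1.51 with windows of 50 bp either side. The E-box CAGCTG, a word of basic helix-loop-helix factors, was in 13 of the 179 windows (7.26%, all IDR peaks 8.02%). In the replicates the difference between non-coding and protein-coding starts was -4.92 ± 1.39 percentage points (SD, n = 3, lower in 3 of 3, exact sign-flip p = 0.25). In the IDR list the share was 10.5% at protein-coding starts and 6.16% away from starts.

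In the other direction stood the GATA word AGATAA. It was in 33 of the 179 windows, 18.4%, against 13.8% at protein-coding starts, 18.8% away from starts and 16.7% of all IDR peaks. In the replicates it was in 21.6, 21.3 and 17.7% of windows at non-coding starts, against 14.6, 13.4 and 13.6% at protein-coding starts, a difference of 6.36 ± 2.00 percentage points (SD, n = 3, higher in 3 of 3, exact sign-flip p = 0.25), and of 4.21 with a limit of 1000 bp. CAGGTA differed by 1.27 ± 0.220 in the same direction (exact sign-flip p = 0.25), but was in 7 windows of the 179 (3.91%, all IDR peaks 3.95%), a share near that of all peaks, and the difference was -0.586 with a limit of 1000 bp. The other 6 words had mixed signs over the replicates.

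The homeodomain word TAATTA had a share close to that of the whole list. It was in 35 of the 179 windows, 19.6%, against 18.6% at protein-coding starts and 18.8% of all IDR peaks. In the replicates it was in 17.9, 20.6 and 19.1% of windows at non-coding starts, against 20.3, 19.5 and 19.0% at protein-coding starts, a difference of -0.42 ± 1.78 percentage points (SD, n = 3, exact sign-flip p = 1). Against the sequence 500 bp to either side it was more common at the summit in 3 of 3 replicates, 19.2% ± 1.33 and 11.9% ± 1.16, a difference of 7.33 ± 1.43 (exact sign-flip p = 0.25). Against flanks 1000 bp away the difference was 4.07 ± 0.645.

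Other AT-rich words were also more common at the summit than in the flanks in 3 of 3 replicates. In the IDR list TATAAA was in 71 of the 179 windows, TAAT in 163 and TGTTTAC in 14 (39.7%, 91.1% and 7.82%), near the 39.3%, 92% and 7.61% of all IDR peaks. In the replicates TATAAA was in 40.9% ± 2.06 of summit windows and 27.4% ± 1.87 of flank windows, and AGATAA in 20.2% ± 2.16 and 12.3% ± 2.55 (SD, n = 3). The short core TAAT was in 92.1% ± 0.235 and 82.7% ± 0.850, and the forkhead word TGTTTAC in 8.67% ± 1.98 and 5.07% ± 1.12. Each of these 4 differences had an exact sign-flip p of 0.25. With flanks 1000 bp away the TAAT difference was 5.62 ± 1.64 percentage points, against 9.39 ± 0.622 with the nearer flanks. The TGTTTAC difference was 2.20 ± 2.24 with the farther flanks (exact sign-flip p = 0.5). The summit windows were also poorer in G and C, 34.5% ± 0.252 against 42.1% ± 0.792 in the flanks, and the part of base composition in the word differences was not tested. Base composition did not differ beyond the replicate spread between the summits at non-coding starts and those at protein-coding starts (-0.20 ± 0.924 percentage points, exact sign-flip p = 0.75). Within the 179, mean GC was 34.1% at lncRNA and 34.3% at antisense RNA summits. At the 3 snRNA summits the mean was 47.3%, from 66.7% at snRNA:7SKa, 40.8% at snRNA:U6:96Ac and 34.3% at snRNA:U5:63BC.

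**Figure D5:**
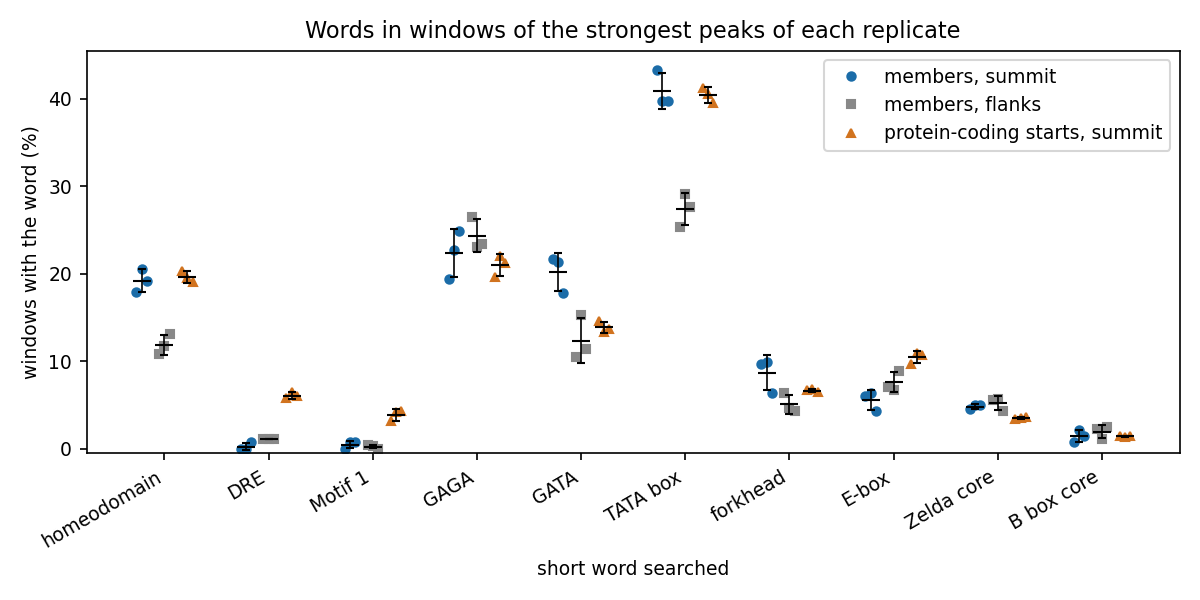
Percent of windows, 100 bp either side, that hold each word, in the members (peaks at non-coding starts) among each replicate's 5000 strongest peaks: at their summits (blue circles), 500 bp to either side (grey squares), and at summits at protein-coding starts (orange triangles), with mean and SD (n = 3). DRE and Motif 1 are rare at non-coding starts, at 0.236% and 0.473% on average, against 6.07% and 3.86% at protein-coding starts.

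The 737 further peaks of the pooled list are weaker, with a median −log10 q of 0.976 and a lowest value of 0.348, against 4.24 for each IDR peak. Only 20.9% of them had a summit within 100 bp in all 3 replicate lists, beside 22.5% of all pooled peaks of these ranks, and 53 had a match in none. TATCGATA was in 0.678% and GGTCACAC in 1.22% of their windows, against 5.20% and 4.28% at the 5230 protein-coding-start peaks of the same ranks. TAATTA was in 12.9% of their summit windows and 13.1% of the flanks, so the difference between summit and flank seen in the stronger peaks was not seen there. GGTTCGA, the B box core found inside tRNA genes, was in 5.70% of them, against 1.84% at protein-coding starts, and in 0.559% of the 179 IDR peaks (all IDR peaks 1.24%). Of the 737, 53.6% lay upstream of their start and 50.5% within 200 bp. These values describe pooled peaks without replicates and carry no test.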

How the data were processed

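Chromatin immunoprecipitation with an anti-GFP antibody was sequenced in 3 biological replicates. Per the file headers and notes, the authors derived each replicate's peaks from its alignment and 1 shared control, the pooled list from the 3 alignments, and the IDR list from these lists, on dm6. The sources used here name no aligner or peak caller. The deposited signal of a peak is the authors' own value, near the sum of the replicates in the pooled list, so signals were compared within a list only. The deposited −log10 q values reach a ceiling of 4.24 and were used to describe weak peaks. Each replicate list and the pooled list hold 30000 peaks, so their peak numbers are not compared, and depth is unknown.

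Starts were the transcript 5′ ends of the Ensembl annotation (release 115) on arms 2L, 2R, 3L, 3R, 4 and X, mature miRNA records included under the hairpin's name. Coordinates are 1-based. An IDR peak was matched to the nearest replicate summit within 100 bp. Errors are SDs over 3 replicates, from matched peaks for signals and from the 5000 strongest peaks otherwise. Tests were exact two-sided sign-flip permutations over replicates. The members, words and gene lists were chosen with earlier results of these data known. Named peaks were the 10 strongest, the 3 strongest per class and a list of known non-coding genes. Others are said to be chosen afterwards. Alternatives were other distance limits, start definitions, peak sets, windows, flanks and matching distances, and leaving out each replicate. Leaving out mature miRNA records, and words over all IDR peaks, were added after seeing the data. The control and signal tracks were not analysed here. The calculations were tested on simulated data. Python 3.11.15, numpy 2.4.6, pandas 2.3.3, scipy 1.17.1 and matplotlib 3.10.9 were used.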

Additional observations from a re-analysis of the deposited data

How the results depend on the processing

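No paired analysis was possible because there is 1 group, with no other whose replicates could be paired with it. The tests use differences taken within each replicate. Depth is unknown, and with 3 replicates no test can reach p under 0.25, so directions rather than calls were compared. Of 349 comparisons of 36 results with an alternative, 288 kept the direction or stayed within the replicate spread, the counting interval or 1.5 times a count. The cause of the changes was not tested.

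The share of IDR peaks at non-coding starts was 1.45% with a limit of 200 bp, 3.72% with 1000 bp, 2.78% with gene records as starts and 2.68% when peaks under the median signal were left out. Without 1 replicate it ran from 2.58% to 2.62%. The share in the replicates was 1.55%, 4.04% and 3.08% under the first 3 of these. Matching in all replicates was 87.4% with the limit of 200 bp, 71.5% with a matching distance of 50 bp and 97.8% with 200 bp. The number of non-coding genes with a peak was 109 with a limit of 200 bp and 97 above the median signal. The share upstream was 72.8% with 200 bp, 57.2% with 1000 bp and 69.5% above the median signal. The share inside protein-coding genes was 47.2% with gene records and 31.6% above the median signal.

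The log2 signal difference from protein-coding starts became 0.0167 above the median signal, and that from peaks away from starts became -0.0693 with a limit of 200 bp, lower in 3 of 3 replicates. The GC difference from protein-coding starts became 0.936 with 200 bp, 0.320 with gene records and 0.849 above the median signal, and ran from -0.712 to 0.177 without 1 replicate. The TAATTA difference from protein-coding starts became 0.378 with word windows of 50 bp and 0.982 over all IDR peaks, and ran from -1.14 to 0.581 without 1 replicate. The CAGCTG difference from the flanks became 1.32 with flanks 1000 bp away and 0.279 over all IDR peaks. The CAGGTA difference from protein-coding starts became -0.586 with 1000 bp and -0.311 with windows of 50 bp.

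The words lower than the flanks in every replicate, 2 of 11 (TATCGATA and CAGCTG), became 1 with a limit of 200 bp, 1 with gene records, 1 without pseudogenes, 4 with windows of 50 bp and 0 with flanks 1000 bp away, and ran from 2 to 4 without 1 replicate. The words higher than at protein-coding starts in every replicate, 2 of 11, became 4 with 200 bp and 1 with 1000 bp, and ran from 3 to 5 without 1 replicate. The differences from protein-coding starts of TATCGATA, GGTCACAC, AGATAA and CAGCTG kept their direction under all alternatives run.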
